A study of Mus musculus with 12 samples.

Results

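The genes described here are 36 interferon-stimulated genes, chosen by symbol from textbook membership of the response and without the proteasome and peptide transporter genes that interferon also induces. The list and its role groups were drawn up with earlier results of these data known. Shares of the members set beside those of all genes are therefore descriptions. All 36 were present among the 15366 genes of the expression table, and all 36 passed the filter on low values (a level above 1 CPM in at least 3 libraries), as did 13046 genes in all. Their RNA was measured in LSK cells of the bone marrow, a fraction sorted as lacking lineage markers and carrying Sca-1 and Kit, which contains the stem cells of the blood and early multipotent progenitors. The mice were C57BL/6, labelled untreated, and each of the 4 genotypes had 3 libraries. The control group carried Vav Cre, a Cre recombinase under Vav sequences, which are active throughout the blood system. The KDM6B OE group carried a human KDM6B gene under Vav sequences, and its label names no Cre. In the Tet2 KO group Vav Cre was combined with Tet2 flox/flox, and the double lesion group carried the transgene, Vav Cre and Tet2 flox/flox together. The control, Tet2 KO and double lesion groups thus share Vav Cre, whereas the KDM6B OE label does not name it. No label gives an age, or says whether replicate libraries stem from different mice. Transcripts of the Y chromosome, given below, were present in some but not all libraries of Vav Cre, Tet2 KO and the double lesion. Each of these groups thus includes libraries of different mice, though not necessarily a separate mouse for each library. For KDM6B OE these transcripts cannot tell, since no library had them. P-values therefore reflect only the spread among these libraries, part of which may be technical.

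Interferons are secreted proteins that warn neighbouring cells of infection. Type I interferons bind the receptor made of IFNAR1 and IFNAR2, whose kinases JAK1 and TYK2 act on STAT2 and its partners; with IRF9 these form a complex that binds the interferon-stimulated response element of target promoters. Interferon gamma acts through IFNGR1 and IFNGR2 and a different, palindromic site, and strongly induces the GTPases of the immunity-related and guanylate-binding families. Blood stem cells are known to keep part of this programme on without infection, and to leave quiescence when interferon is given. Sca-1, a marker of the LSK gate, is itself induced by interferon. KDM6B is a demethylase of histone H3 that takes off a repressive mark, and TET2 oxidises methylated cytosine in DNA; both act on the chromatin of many genes.

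Values are CPM (reads of a gene scaled to a common library total), and the 3 values of a group are listed in the order of replicates 1, 2 and 3. A single read was worth at most 0.0463 CPM, and the libraries held 21935022 to 26263370 reads on listed genes. Differences are given on the log2(CPM + 1) scale ± SE, with limma's p adjusted over all 13046 genes of a comparison (Benjamini-Hochberg), and a gene passed at an adjusted p under 0.05. The targeted gene Tet2, reported first as a check of the labels, read 82.9, 66.2 and 97.1 CPM with Vav Cre alone, 64.9, 87.6 and 84.5 under KDM6B OE, 31.6, 24.9 and 24.1 under Tet2 KO and 37.2, 35.1 and 26.5 under both. All 6 Tet2 flox/flox libraries were below the 6 others. Mouse Kdm6b, which is not the human transgene, read 6.37 to 7.91 CPM in Vav Cre and 9.30 to 12.3 CPM in the double lesion. Transcripts of the Y chromosome were present in 4 libraries (Vav Cre 1, Tet2 KO 1, double lesion 1 and double lesion 3) and near 0 in the other 8. All 3 KDM6B OE libraries were among those near 0. Sex thus differed between libraries within the other groups, and it was unevenly spread between the groups. The 10 LSK markers were present throughout and summed to 2250 to 3070 CPM in the control libraries, 3060 to 3492 in those of KDM6B OE, 2874 to 3714 in those of Tet2 KO and 3278 to 4006 in those of the double lesion, which all lay above the controls. Markers of B cells (8 genes) summed to 66.6 to 183 CPM and those of T and NK cells (7 genes) to 215 to 353 CPM; Pax5 and Cd3d were the markers of these lists that stayed under 1 CPM in all 12 libraries. Sca-1 itself (Ly6a) ran from 78.2 CPM in Vav Cre 3 to 180.0 CPM in Tet2 KO 2.

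In the double lesion against Vav Cre, 10 of the 36 members rose and none fell. These were the immunity-related GTPases Iigp1, Irgm1, Irgm2 and Igtp, the guanylate-binding proteins Gbp2 and Gbp5, the RNA sensor Ddx58 (RIG-I), the transcription factor Stat2, the OAS-like gene Oasl2 and Ifi44. The increases ran from 0.39 for Oasl2 to 1.30 for Gbp5 on the log2 scale. Beside these 27.8% of the members, 7.34% of all genes tested were called higher in this comparison and 14.9% were called in either direction. By family, 4 of 5 immunity-related GTPases and 2 of 5 guanylate-binding proteins passed, against 1 of 5 in the OAS family, 1 of 3 transcription factors, 1 of 3 sensors and 1 of 5 other effectors. None of the 4 IFIT genes, the 2 genes of the ISG15 system, the 2 Mx genes or the 2 genes of the viperin locus did. The median difference of the 36 members was 0.43, against 0.05 over all genes tested, and 28 of the 36 were above 0. In 14 members (38.9%) all 3 double lesion libraries lay above all 3 Vav Cre libraries, which was so for 16.4% of all genes. The summed LSK markers were higher in all 3 double lesion libraries too, and their part in the result was not tested. In a bulk sample, fewer cells of a type and less RNA per cell cannot be told apart. Leaving out double lesion 1 or double lesion 2 lowered the count to 2, double lesion 3 to 3 and Vav Cre 2 to 5, and it was 2 when only the 6 libraries compared were fitted.

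**Figure D1:**
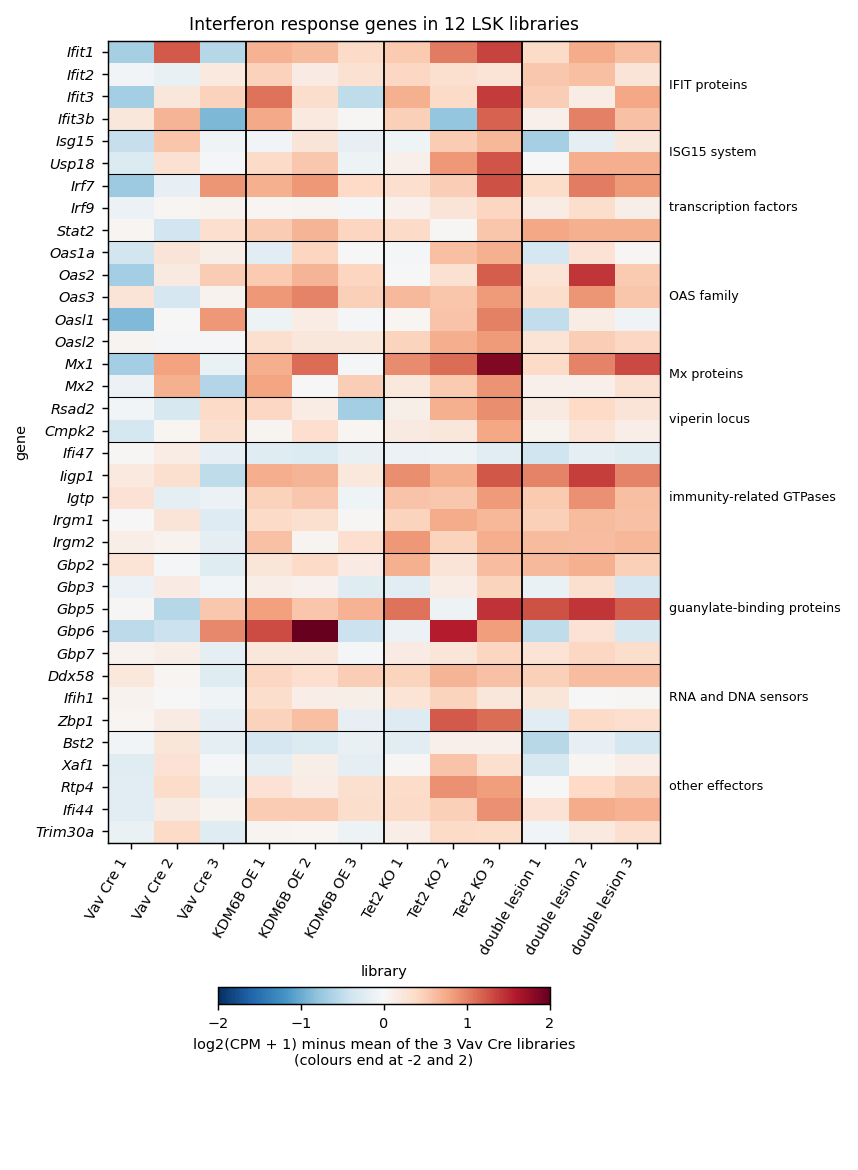
Each row is a member and each column a library; the colour is log2(CPM + 1) minus the mean of the 3 Vav Cre libraries, from blue (lower) to red (higher), and members are ordered by role. The immunity-related GTPases other than Ifi47 are red in all 3 double lesion and all 3 Tet2 KO libraries, while Ifit1, Oasl1 and Gbp6 vary strongly within groups.

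The response element that the complex of STAT2 and IRF9 binds is shown in promoters of members that rose. A match in each was fixed by the choice of promoters. Those printed are of the first 5 members, by adjusted p, whose window holds the core of the element. They run from 250 bases before the RefSeq start site to 20 bases after it, 5′ to 3′ in the direction of the gene, on GRCm38.p6. Capitals mark each match to the core of the element, which is GAAA, any 2 bases, then GAAA, on either strand; on the opposite strand it reads TTTC, any 2 bases, then TTTC.
Ddx58 (chr4:40239806-40240075, minus strand): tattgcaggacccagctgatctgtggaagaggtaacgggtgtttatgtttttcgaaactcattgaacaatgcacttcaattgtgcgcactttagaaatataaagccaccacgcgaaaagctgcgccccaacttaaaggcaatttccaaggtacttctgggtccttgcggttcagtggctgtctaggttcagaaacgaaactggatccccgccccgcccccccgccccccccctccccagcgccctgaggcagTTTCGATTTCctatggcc
Irgm1 (chr11:48871401-48871670, minus strand): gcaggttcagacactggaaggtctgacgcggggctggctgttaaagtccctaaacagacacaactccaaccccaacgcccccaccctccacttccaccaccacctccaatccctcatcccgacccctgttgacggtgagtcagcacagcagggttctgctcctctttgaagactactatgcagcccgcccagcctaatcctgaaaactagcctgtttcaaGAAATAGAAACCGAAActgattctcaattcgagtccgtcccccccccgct
Stat2 (chr10:128270248-128270517, plus strand): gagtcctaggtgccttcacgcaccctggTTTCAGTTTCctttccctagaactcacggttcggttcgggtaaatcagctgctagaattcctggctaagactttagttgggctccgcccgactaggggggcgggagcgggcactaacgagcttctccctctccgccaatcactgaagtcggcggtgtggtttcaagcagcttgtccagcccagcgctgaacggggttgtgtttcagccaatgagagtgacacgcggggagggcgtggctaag
Gbp2 (chr3:142620413-142620682, plus strand): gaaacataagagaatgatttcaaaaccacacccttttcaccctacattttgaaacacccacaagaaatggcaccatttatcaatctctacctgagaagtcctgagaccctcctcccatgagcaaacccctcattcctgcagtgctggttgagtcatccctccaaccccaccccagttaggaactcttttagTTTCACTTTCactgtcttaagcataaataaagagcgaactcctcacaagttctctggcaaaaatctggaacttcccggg
Irgm2 (chr11:58214727-58214996, plus strand): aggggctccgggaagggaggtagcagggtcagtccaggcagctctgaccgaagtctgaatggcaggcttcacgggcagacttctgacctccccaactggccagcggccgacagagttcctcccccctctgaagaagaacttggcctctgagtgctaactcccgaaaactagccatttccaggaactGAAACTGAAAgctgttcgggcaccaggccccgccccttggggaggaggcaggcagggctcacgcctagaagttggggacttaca

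In Irgm1 there were 2 overlapping matches, at bases -30 to -21 and -24 to -15 from the start site. Irgm2 had its match at -64 to -55 and Gbp2 at -59 to -50, while that of Stat2 lay farther out, at -222 to -213. Ddx58 had its match just after the start, at bases 3 to 12. Among the 28 members with a RefSeq window (250 bases before to 50 after the start), 19 held the core (67.9%), against 3.99% of all 27025 genes with a window and 3.44% of all 32851 windows of this length. The core of the palindromic site that STAT factors bind, TTC, any 3 bases, then GAA, which can overlap the first motif, was in 7 of the 28 (25%), in 9.55% of all genes and in 8.3% of all windows. Both motifs stood in 6 members (21.4%), in 0.54% of all genes and in 0.454% of all windows. Of the 8 immunity-related GTPases and guanylate-binding proteins with a window, 7 held the response element core and 4 the STAT site core, against 12 and 3 of the 20 other members. The core was in 7 of the 9 windows of members that rose in the double lesion and in 12 of the 19 others. In Igtp and Irgm2 the STAT site core lay 2 bases upstream of the response element core. Usp18, Oas2, Mx1, Mx2, Iigp1, Gbp6, Zbp1 and Rtp4 had no window matched. A match is a description of the letters in the window, and binding was not measured.

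**Figure D2:**
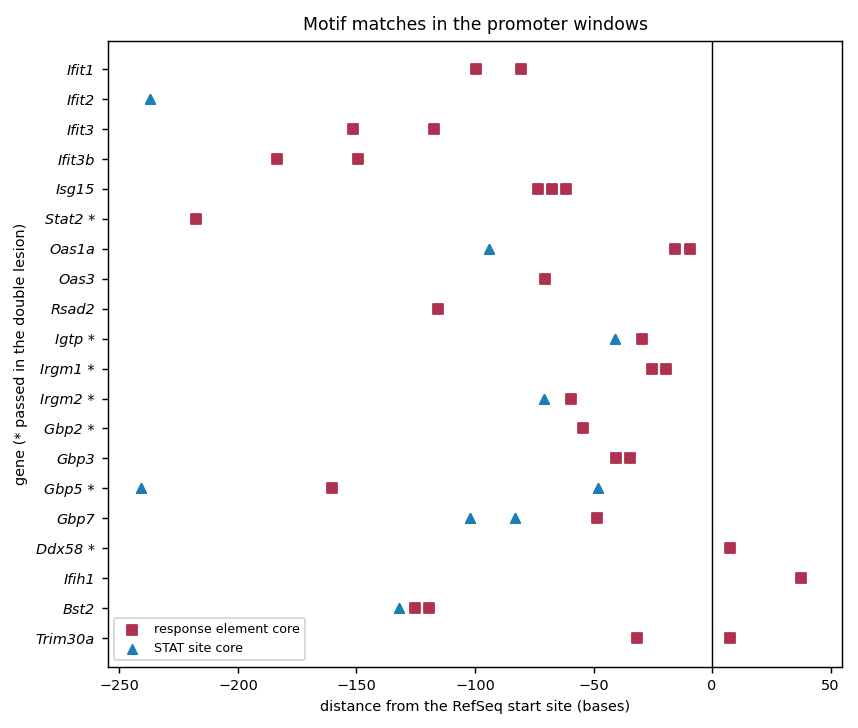
Positions of motif matches in the promoter windows of the members that hold at least 1 match, in bases from the RefSeq start site (vertical line at 0); squares are response element cores and triangles STAT site cores, and an asterisk marks members that rose in the double lesion. Most response element cores lie within about 150 bases upstream of the start, and those of Ddx58, Ifih1 and Trim30a include one after it.

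The immunity-related GTPases (IRG proteins) coat vacuoles that hold intracellular parasites and bacteria and break them open; Irgm1, Irgm2 and Igtp (Irgm3) belong to the subgroup that regulates the others, and loss of Irgm1 is known to impair blood stem cells. Iigp1 (Irga6) is an effector of the family. It read 42.1, 45.8 and 25.5 CPM in Vav Cre and 73.7, 97.5 and 73.6 CPM in the double lesion. All 3 double lesion libraries were above all 3 controls, and the means were 37.8 ± 10.8 and 81.6 ± 13.8 CPM (SD, n = 3). The difference of 1.12 ± 0.22 (adjusted p = 0.00911) had the lowest adjusted p among the members. In the single lesions Iigp1 read 61.6, 59.1 and 42.7 CPM (KDM6B OE) and 70.4, 60.5 and 87.8 CPM (Tet2 KO); the Tet2 KO libraries also lay above every control, and the KDM6B OE libraries overlapped them. Iigp1 passed under each of the 8 other settings and 12 leave-one-out fits of the double lesion comparison.

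Irgm1 read 157, 188 and 131 CPM for Vav Cre, 206, 196 and 159.7 for KDM6B OE, 214, 262 and 251 for Tet2 KO and 218, 244 and 236 for the double lesion. The 6 Tet2 flox/flox libraries all stood above the 6 others. Against Vav Cre the double lesion difference was 0.56 ± 0.14 (adjusted p = 0.0204), from 159 ± 28.3 to 233 ± 13 CPM (SD, n = 3). Irgm2 was lower in level and followed the same order of groups, with 35.5, 33.8 and 27.9 CPM with Vav Cre alone, 49.1, 33.6 and 40.9 under KDM6B OE, 59.7, 44.0 and 54.2 under Tet2 KO and 50.6, 49.9 and 51.9 under both. Its double lesion libraries lay within a narrow band above every control, a difference of 0.64 ± 0.16 (adjusted p = 0.0224). For Igtp the values were 106, 76.8 and 80.3 CPM for Vav Cre, 119.9, 127 and 82.1 for KDM6B OE, 129.6, 126 and 158 for Tet2 KO and 125, 165 and 132 for the double lesion. The controls did not overlap the double lesion or the Tet2 KO libraries, and the double lesion difference was 0.68 ± 0.18 (adjusted p = 0.0258). The annotated exons of Igtp and Irgm2 overlap on the same strand, and 11.8% of the 50-base words of Igtp occur in Irgm2, so the counts of this pair are not fully separate.

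Ifi47 (Irg-47), the remaining member of the family, had the highest level per kilobase of the 36 and lay below the controls where the other GTPases lay above. It read 291, 318 and 255 CPM with Vav Cre alone, 244, 237 and 258 under KDM6B OE, 264, 266 and 248 under Tet2 KO and 217, 253 and 241 under both. The double lesion libraries all lay below the controls, and Ifi47 was the single member with that pattern. The share of all genes with that pattern is not given here, so whether it is unusual cannot be said. The Ifi47 difference of -0.28 ± 0.10 did not pass (adjusted p = 0.076). DESeq2 on the recovered reads and the fit without Vav Cre 3 called Ifi47. Exons of Ifi47 overlap Olfr56 on the same strand and Gm12188 on the opposite strand, and how the counting handled such overlaps is not stated in the labels.

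The guanylate-binding proteins are larger GTPases that gather on pathogen vacuoles and bacteria and promote inflammasome activation. Gbp5, known for its role in NLRP3 inflammasome assembly, read 17.3, 11.1 and 25.1 CPM for Vav Cre, 30.8, 25.3 and 28.1 for KDM6B OE, 37.3, 15.8 and 47.8 for Tet2 KO and 42.2, 47.2 and 40.4 for the double lesion. It was high in all 3 double lesion libraries, and in Tet2 KO the second library stayed within the control range. The double lesion difference was 1.30 ± 0.33 (adjusted p = 0.0241), from 17.8 ± 7.04 to 43.3 ± 3.50 CPM (SD, n = 3). Gbp2 read 80.9, 65.6 and 56.0 CPM with Vav Cre alone, 78.9, 87.2 and 75.1 under KDM6B OE, 110.2, 79.8 and 103 under Tet2 KO and 105, 109.7 and 93.3 under both. Only the double lesion libraries were all above the controls, and the difference was 0.61 ± 0.15 (adjusted p = 0.0209). Gbp7, the most abundant of the family by CPM, read 158, 165 and 131 CPM for Vav Cre, 176, 176 and 147 for KDM6B OE, 168, 179 and 203 for Tet2 KO and 182, 202 and 192 for the double lesion. Its double lesion libraries also lay above every control, but the difference of 0.35 ± 0.12 did not pass (adjusted p = 0.0616).

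Gbp3 and Gbp6 showed no such order. Gbp3 read 69.1, 84.3 and 72.1 CPM in Vav Cre and 68.0, 94.2 and 59.3 CPM in the double lesion, and the groups overlapped. Gbp6 was the most uneven member of the family, at 10.4, 11.1 and 31.0 CPM with Vav Cre alone, 39.4, 66.0 and 11.2 under KDM6B OE, 14.1, 47.7 and 28.4 under Tet2 KO and 10.6, 19.0 and 12.2 under both. Its high libraries were KDM6B OE 2 and Tet2 KO 2, and low ones occurred in every group. Of the 50-base words of Gbp6, 70.7% also occur in other genes, chiefly Gm43302, so its counts are uncertain; for Gbp7 this share was 12.7%.

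**Figure D3:**
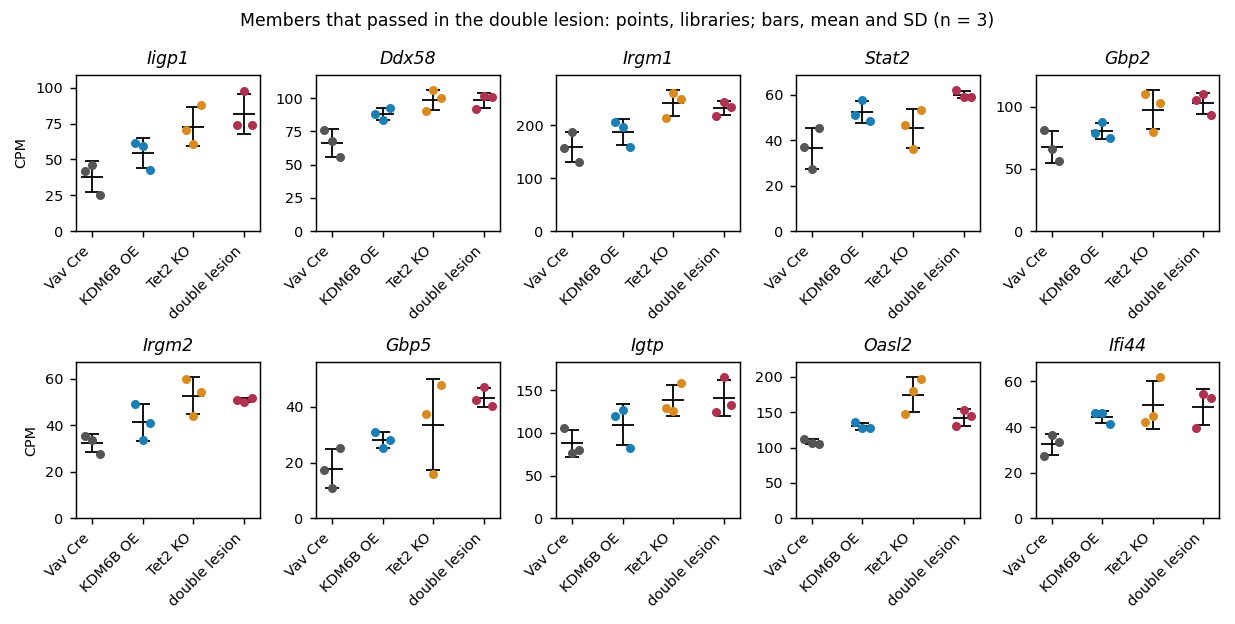
Points are the CPM of single libraries for the 10 members that rose in the double lesion, and bars are the mean and SD of each group (n = 3); each panel has its own linear axis from 0. In all 10 panels the 3 double lesion points lie above the 3 Vav Cre points, and the KDM6B OE means lie between those of these 2 groups.

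Of the transcription factors, Stat2, the STAT partner that is specific to type I and III interferon signalling, read 36.9, 27.3 and 45.3 CPM for Vav Cre, 51.2, 57.9 and 48.4 for KDM6B OE, 46.7, 36.2 and 53.2 for Tet2 KO and 62.1, 59.1 and 59.2 for the double lesion. The double lesion libraries were above all 9 others, and the KDM6B OE libraries were above the controls, while Tet2 KO overlapped them. Stat2 rose by 0.73 ± 0.18 in the double lesion (adjusted p = 0.0204). Over both Tet2 states it was 0.48 ± 0.13 higher with the transgene, which did not pass (adjusted p = 0.0504). Irf9, the DNA-binding partner of the complex, was the most abundant of the 3 factors, at 119.6, 133 and 136 CPM with Vav Cre alone, 133, 134 and 125 under KDM6B OE, 137, 155 and 174 under Tet2 KO and 143, 164 and 140.2 under both. Its 6 Tet2 flox/flox libraries all stood above the 6 others, a difference of 0.22 ± 0.08 that did not pass (adjusted p = 0.232). Its exons overlap those of Rnf31 on the same strand. Irf7, which drives interferon genes themselves, read 15.2, 22.9 and 48.0 CPM in Vav Cre and 33.5, 53.1 and 47.1 CPM in the double lesion. Vav Cre 3 lay within the double lesion range, and the difference of 0.75 ± 0.34 did not pass (adjusted p = 0.148).

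Among the sensors, Ddx58 encodes RIG-I, which detects short or triphosphorylated RNA in the cytoplasm. It read 76.2, 67.6 and 55.4 CPM for Vav Cre, 88.0, 83.4 and 92.9 for KDM6B OE, 90.3, 106 and 99.8 for Tet2 KO and 91.8, 102 and 101 for the double lesion. In each of the 3 lesion groups all libraries were above all controls, and the double lesion difference was 0.57 ± 0.12 (adjusted p = 0.0142), from 66.4 ± 10.4 to 98.1 ± 5.47 CPM (SD, n = 3). Ifih1 encodes MDA5, the sensor of long double-stranded RNA, and read 56.1, 53.2 and 50.5 CPM in Vav Cre and 63.3, 52.8 and 53.9 CPM in the double lesion, with overlap. Both single lesions had all 3 Ifih1 libraries above the controls, with differences of 0.20 in KDM6B OE and 0.32 in Tet2 KO that did not pass (adjusted p = 0.348 and 0.304). Zbp1, a sensor of Z-form nucleic acid that can start necroptosis, was high in Tet2 KO 2 and Tet2 KO 3 (32.5 and 29.9 CPM) and lay between 10.8 and 20.5 CPM elsewhere.

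The OAS enzymes make 2′-5′ oligoadenylates that activate RNase L. Oasl2 read 112, 107 and 106 CPM with Vav Cre alone, 136, 127 and 127 under KDM6B OE, 147, 180.0 and 197 under Tet2 KO and 130.3, 153 and 144 under both. The controls were tight and below every library of the other groups, and Tet2 KO 2 and 3 were the highest. The double lesion difference was 0.39 ± 0.11 (adjusted p = 0.0368); in Tet2 KO the difference was larger, at 0.68 ± 0.11, but did not pass (adjusted p = 0.0597). Adjusted p is not comparable between these comparisons, since it depends on how many genes pass in each. Oas3 read 15.1, 9.74 and 13.2 CPM for Vav Cre, 23.6, 25.9 and 17.8 for KDM6B OE, 20.2, 18.9 and 23.3 for Tet2 KO and 16.3, 23.8 and 18.8 for the double lesion. Every library with a lesion was above every control, yet none of the 3 differences passed: 0.78 ± 0.21 for KDM6B OE, 0.69 ± 0.21 for Tet2 KO and 0.59 ± 0.21 for the double lesion (adjusted p = 0.104, 0.246 and 0.0695). Oas1a, Oas2 and Oasl1 overlapped between the double lesion and Vav Cre. Oas1a shares 57.6% of its 50-base words with other genes, chiefly Oas1g, and is uncertain for that reason.

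The IFIT proteins bind viral RNA that lacks the methylated cap of host messages. Ifit2, the most abundant of them by mean CPM, read 24.7, 23.1 and 29.7 CPM with Vav Cre alone, 35.8, 28.9 and 32.2 under KDM6B OE, 34.7, 32.2 and 31.1 under Tet2 KO and 37.7, 39.4 and 31.1 under both. Tet2 KO and double lesion libraries were all above the controls, and the double lesion difference of 0.47 ± 0.15 did not pass (adjusted p = 0.0522). Ifit1 was set apart by 1 control: Vav Cre 2 read 48.3 CPM against 12.3 and 13.2 CPM in the other Vav Cre libraries. Without Vav Cre 2, Ifit1 passed in all 3 lesion groups against the 2 controls that remained; with it the differences were 0.57, 0.97 and 0.58 (adjusted p = 0.403, 0.315 and 0.321). Ifit3 and Ifit3b were low, between 0.0439 and 11.1 CPM, and share 51.2% and 45% of their 50-base words with other genes, chiefly each other.

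ISG15 is a ubiquitin-like protein that is attached to other proteins after interferon, and USP18 removes it and also dampens the type I receptor. Usp18 read 29.5, 44.3 and 35.1 CPM for Vav Cre, 47.1, 52.7 and 33.3 for KDM6B OE, 38.3, 65.9 and 86.7 for Tet2 KO and 35.5, 60.1 and 59.7 for the double lesion. Every lesion group held a library within the control range, and the double lesion difference of 0.48 ± 0.28 did not pass (adjusted p = 0.262). Isg15 ran from 8.73 to 23.5 CPM with no order of groups. Mx1 and Mx2 encode dynamin-like GTPases that block virus replication; the Mx1 gene of C57BL/6 mice is known to be defective, and both were low. Mx2 read 3.27, 6.54 and 2.06 CPM with Vav Cre alone, 6.96, 3.65 and 5.5 under KDM6B OE, 4.33, 5.65 and 7.63 under Tet2 KO and 3.95, 3.96 and 4.71 under both, and all groups overlapped. Mx1 read 0.934, 4.44 and 1.85 CPM in Vav Cre and 4.97, 5.74 and 10.2 CPM in Tet2 KO, without overlap, and the difference of 1.31 ± 0.41, the largest of the 36 in that comparison, did not pass (adjusted p = 0.249). Rsad2 encodes viperin, which makes a chain-terminating nucleotide from CTP, and its neighbour Cmpk2 encodes a nucleotide kinase. Cmpk2 read 39.8, 52.4 and 64.0 CPM for Vav Cre, 53.2, 64.7 and 52.8 for KDM6B OE, 57.8, 59.8 and 88.5 for Tet2 KO and 53.9, 62.3 and 56.2 for the double lesion. Tet2 KO 3 stood highest for both genes (88.5 CPM for Cmpk2 and 63.0 CPM for Rsad2), and no difference of the pair passed.

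Of the other effectors, Ifi44, an inducible antiviral protein, read 27.4, 36.4 and 33.4 CPM with Vav Cre alone, 46.0, 46.0 and 41.3 under KDM6B OE, 42.2, 45 and 61.8 under Tet2 KO and 39.8, 54.4 and 52.6 under both. All 9 libraries with a lesion were above the 3 controls, and the double lesion difference was 0.57 ± 0.17 (adjusted p = 0.0412). Of the 10 calls this was the one held in the fewest leave-one-out fits, 4 of 12. Rtp4, a chaperone for membrane receptors that also restrains antiviral responses, read 69.1, 104 and 72.1 CPM for Vav Cre, 98.8, 89.1 and 101 for KDM6B OE, 104, 153 and 144 for Tet2 KO and 79.9, 107 and 114 for the double lesion. Its values were highest in Tet2 KO 2 and 3, with differences of 0.71 ± 0.18 for Tet2 KO and 0.30 ± 0.18 for the double lesion (adjusted p = 0.219 and 0.285). Bst2, or tetherin, which holds budding viruses at the cell surface, was 1 of the 8 members below the control mean in the double lesion, at -0.36 (adjusted p = 0.102). Xaf1, linked to apoptosis, and Trim30a, a tripartite motif protein, overlapped between all lesion groups and the controls.

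Taken singly, neither lesion moved a member past the threshold, while most members lay above 0 in each. Irgm1, Irgm2, Ddx58, Ifi44 and Oasl2 differed from Vav Cre by 0.617, 0.680, 0.572, 0.589 and 0.675 in Tet2 KO. In the double lesion they differed by 0.562, 0.642, 0.567, 0.574 and 0.390. Iigp1, Igtp, Gbp2, Gbp5 and Stat2 differed less in Tet2 KO than in the double lesion. Adjusted p is not comparable between these comparisons, since it depends on how many genes pass in each. In KDM6B OE against Vav Cre the members had a median of 0.29 (0.04 over all genes), 30 of 36 were positive and 0 passed, where 0.598% of all genes did. Tet2 KO against Vav Cre gave a median of 0.56 (0.03 over all genes), 34 of 36 positive and 0 passed, where 0.0307% of all genes did. At an unadjusted p under 0.05, the counts were 7 members in KDM6B OE, 19.4% beside 21.6% of all genes and so near the background. They were 18 in Tet2 KO (13.49% of all genes) and 17 in the double lesion (32.32% of all genes). The libraries of KDM6B OE did not overlap the controls on the higher side in 7 members (19.4%, against 11.6% of all genes): Gbp5, Ddx58, Stat2, Ifi44, Oasl2, Oas3 and Ifih1. Those of Tet2 KO did not in 13 members (36.1%, against 6.87% of all genes), among them Iigp1, Igtp, Irgm1, Irgm2, Ddx58, Oasl2, Oas3, Mx1 and Irf9. The lowest adjusted p was 0.104 for Oas3 in KDM6B OE and 0.0597 for Oasl2 in Tet2 KO. No member passed with edgeR in either comparison, whereas DESeq2 called 1 in KDM6B OE (Oas3), among 737 genes, and 5 in Tet2 KO (Ddx58, Iigp1, Irgm1, Irgm2 and Oasl2), among 160 genes. The labels do not pair the libraries, but the same-numbered libraries of Vav Cre and Tet2 KO deviated together; with a replicate block 0 members passed in Tet2 KO against Vav Cre, and 1 gene in all in place of 4. These comparisons and the double lesion share the same 3 Vav Cre libraries.

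**Figure D4:**
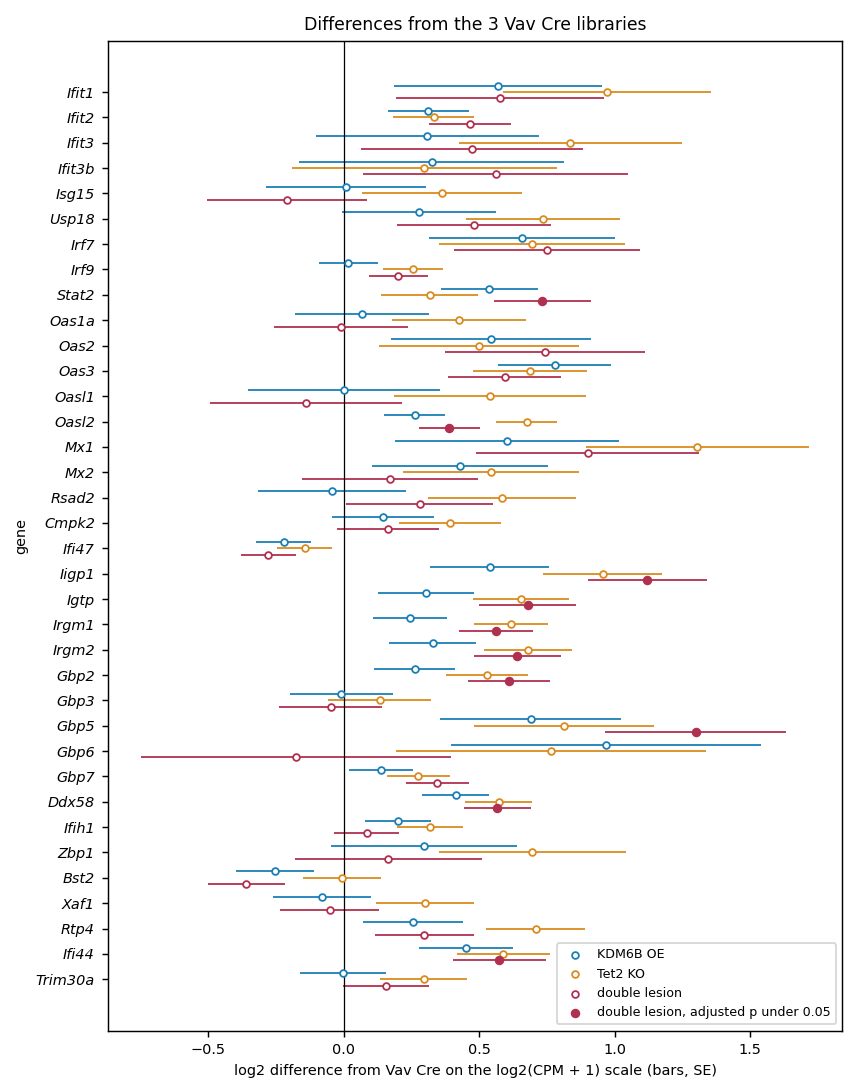
Points are log2 differences of each member from the 3 Vav Cre libraries on the log2(CPM + 1) scale and bars are SE, for KDM6B OE (blue), Tet2 KO (orange) and the double lesion (red); filled points passed at an adjusted p under 0.05. Only double lesion points are filled, 10 of them, and Gbp6, Mx1 and Ifit3b have the widest bars.

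Set directly against the single lesions, the double lesion showed no member that passed. Against KDM6B OE the median of the members was 0.14, 25 of 36 were positive, and 0 passed, as did 0% of all genes. That median was 0.0093 without KDM6B OE 3, 0.0275 without double lesion 2, 0.0791 without double lesion 3 and 0.2484 with a sex term. Against Tet2 KO the median was -0.16, 10 of 36 were positive, and 0 passed, where 0.215% of all genes did. It was -0.0318 without Tet2 KO 3, -0.0535 without double lesion 1 and -0.0904 with a sex term. The lowest adjusted p was 0.693 against KDM6B OE (Iigp1, a difference of 0.58 ± 0.22) and 0.416 against Tet2 KO (Oasl2, -0.29 ± 0.11). Stat2 was the 1 member whose double lesion libraries all lay above those of Tet2 KO, as did 10.8% of all genes (0.42 ± 0.18, adjusted p = 0.452). Against KDM6B OE, 8 members (22.2%, against 8.98% of all genes) did not overlap on the higher side: Iigp1, Gbp5, Gbp2, Stat2, Irgm1, Irgm2, Gbp7 and Irf9. At an unadjusted p under 0.05 there were 3 members against KDM6B OE, all higher (8.33%, against 5.91% of all genes), and 4 against Tet2 KO, of which Stat2 was higher (11.11%, against 10.61% of all genes). Both shares are near the background, and edgeR and DESeq2 called 0 in both.

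The 4 groups also allow each lesion to be read over both states of the other, 6 libraries against 6. For the loss of Tet2 the members had a median of 0.27 (0.02 over all genes) with 33 of 36 positive, and 0 passed, where 0.207% of all genes did. The nearest were Oasl2 (0.40 ± 0.08, adjusted p = 0.0636), Iigp1 (0.77 ± 0.16, adjusted p = 0.0642) and Irgm1 (0.47 ± 0.10, adjusted p = 0.0769). DESeq2 called 8 members and 360 genes in all here, namely the 4 immunity-related GTPases that rose in the double lesion, Gbp2, Gbp5, Ddx58 and Oasl2, and edgeR called 0. For the transgene the median was 0.02, equal to that of all genes at this rounding, 20 of 36 were positive and 0 passed, where 4.35% of all genes did. Stat2 came nearest (adjusted p = 0.0504), and Bst2 was -0.30 ± 0.10 (adjusted p = 0.086). DESeq2 called these 2 among 1624 genes in all, and edgeR called 0 members. The unadjusted counts were 16 members for the loss of Tet2 (14.71% of all genes) and 7 for the transgene (26.89% of all genes). Without Vav Cre 3, 3 members passed for the loss of Tet2, among 284 genes, and 5 for the transgene, among 2777 genes. Without Vav Cre 2, 3 passed for the loss of Tet2, among 31 genes. With a replicate block 4 members passed for the loss of Tet2 (Iigp1, Irgm1, Irgm2 and Oasl2), among 97 genes, and 2 for the transgene, among 1516 genes.

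The interaction asks whether the double lesion differs from the sum of the 2 single differences (the double lesion minus KDM6B OE minus Tet2 KO plus Vav Cre). Its estimate was below 0 in 35 of the 36 members, with a median of -0.38, against 44.97% of all genes above 0 and a median of -0.03 over all genes. The exception was Ifi47, at 0.09 ± 0.14. The most negative were Gbp6 (-1.91 ± 0.81), Mx1 (-1.01 ± 0.58) and Ifit1 (-0.96 ± 0.54). None passed, as 0% of all genes did, the adjusted p was 0.999 for every member, 6 members had an unadjusted p under 0.05 (4.43% of all genes did), and edgeR and DESeq2 called 0. Each member's estimate rests on the same 12 libraries, so the 36 signs are not independent.

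Within a genotype the members varied together. Over the 630 pairs of members, the correlation of their deviations from the group means across the 12 libraries had a median of 0.317, and 72.9% of the pairs were positive, against a median near 0 (-0.000179) for members with other genes. These libraries share 4 group means and their depth, and the values are a description. Tet2 KO 3 was the highest of its group in 23 of 36 members and Tet2 KO 1 the lowest in 24. Double lesion 2 was the highest in 26 and double lesion 1 the lowest in 26. Tet2 KO 1 and double lesion 1 carried Y chromosome transcripts, and Tet2 KO 3 and double lesion 2 did not. Double lesion 3 also carried them and was the lowest in 6 members. The part of sex in this spread was not tested. KDM6B OE 3 was the lowest of its group in 25 members, and its median level was only 0.02 above the Vav Cre mean. The other medians above that mean were 0.41 and 0.33 for KDM6B OE 1 and 2, 0.30, 0.49 and 0.84 for Tet2 KO 1 to 3, and 0.26, 0.46 and 0.44 for double lesion 1 to 3. In Vav Cre the second library was highest in 18 members. The spread between Tet2 KO libraries was thus wider than the gap between the medians of the Tet2 KO and double lesion groups. The immunity-related GTPases lay closer together in 2 groups, with library medians of 0.57, 0.53 and 0.73 in Tet2 KO and 0.52, 0.63 and 0.60 in the double lesion. They did not in KDM6B OE (0.46, 0.32 and 0.02) or in Vav Cre (0.14, 0.15 and -0.20).

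Markers of other cell types moved with part of this spread, and their part in the result was not tested. The 8 monocyte and macrophage markers, all detected, summed to 499, 621 and 475 CPM in Vav Cre, 496, 529.9 and 445 in KDM6B OE, 468, 700.5 and 719 in Tet2 KO, and 502, 667 and 530.0 in the double lesion. The 8 neutrophil markers ran from 1781 to 4257 CPM with Vav Cre alone, from 2243 to 3234 under KDM6B OE, from 2342 to 6522 under Tet2 KO and from 2675 to 5249 under both. In Tet2 KO and in the double lesion, the library with the highest sums of both lists (Tet2 KO 3 and double lesion 2) was also the highest for most members, and the library with the lowest sums (Tet2 KO 1, double lesion 1 and, in KDM6B OE, the third library) was the lowest for most members. Plasmacytoid dendritic cells, known as strong producers of interferon, had marker sums of 305 to 396, 232 to 299, 344 to 413 and 317 to 395 CPM in Vav Cre, KDM6B OE, Tet2 KO and the double lesion, 7 of their 9 markers being summed, without the member Bst2. Here too Tet2 KO 3 and double lesion 2 were the highest of their groups, and Tet2 KO 1, double lesion 1 and KDM6B OE 3 the lowest. In Vav Cre the order differed: the plasmacytoid sum was lowest in the second library (305 CPM), the highest for 18 of 36 members. The sum of the 7 classical dendritic cell markers also ran otherwise. It was highest in Tet2 KO 1 (450 CPM) and double lesion 1 (496 CPM), the libraries lowest for most members. The summed LSK markers were highest in Tet2 KO 1 (3714 CPM) and double lesion 1 (4006 CPM), the libraries lowest for most members. In KDM6B OE the LSK sum was highest in the first library (3492 CPM). The erythroid sum was high in Vav Cre 2 (1728 CPM) and the B cell sum in Tet2 KO 2 (183 CPM). Immediate early genes, which respond to handling as well as to signals, summed to between 1231 and 2389 CPM with Vav Cre alone, between 6490 and 9531 under KDM6B OE, between 1355 and 2914 under Tet2 KO and between 6993 and 10370 under both. They were high in both groups with the transgene.

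**Figure D5:**
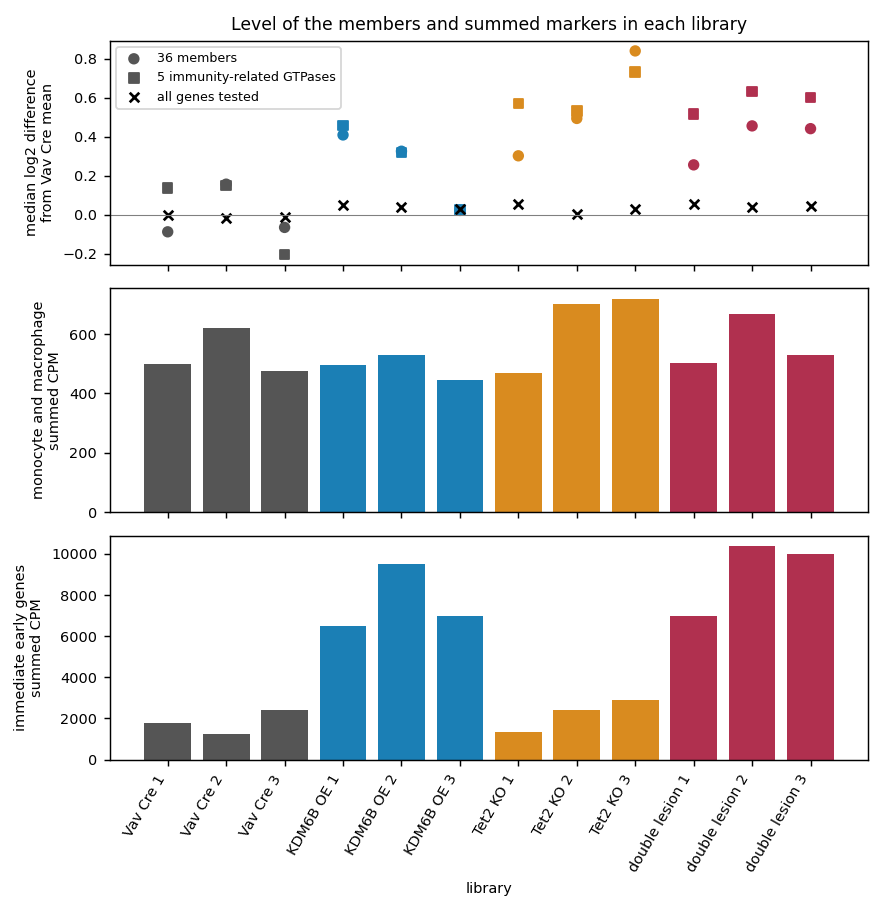
The upper panel gives each library's median log2 difference from the Vav Cre mean for the 36 members (circles), the 5 immunity-related GTPases (squares) and all genes tested (crosses); the lower panels give the summed CPM of monocyte and macrophage markers and of immediate early genes as bars from 0. All genes stay near 0, Tet2 KO 3 has the highest median of members (0.84), and the immediate early sums are high in the 6 libraries with the transgene.

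Outside the members, the pathway was read from lists of genes by their role. The counts of each list in the double lesion stand beside 7.34% of all genes called higher and 14.9% called in either direction. Of 21 interferon genes searched (the ligands), none was in the table, so interferon RNA is not analysed here. Of 8 receptor and kinase genes tested, 1 rose in the double lesion: Jak1, a kinase of both receptors, from 371, 301 and 426 to 520.2, 449 and 481 CPM (0.41 ± 0.12, adjusted p = 0.0379). All 3 double lesion libraries were above the controls; the call was lost in 8 of 12 leave-one-out fits. The receptor chains Ifnar1, Ifnar2, Ifngr1 and Ifngr2 did not pass in any comparison, and Ifnar1 read 54.3, 60.5 and 85.5 CPM in Vav Cre and 81.4, 66.5 and 76.7 CPM in the double lesion.

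Among 9 STAT and IRF genes outside the members, 2 rose in the double lesion and none fell. Stat3, which carries the signals of interleukin-6 and related cytokines, rose in the double lesion by 0.77 ± 0.13 (adjusted p = 0.00551), from 192 ± 33.3 to 325 ± 20.2 CPM (SD, n = 3), and with the transgene over both Tet2 states by 0.43 ± 0.09 (adjusted p = 0.0245). Irf5, which links Toll-like receptors to cytokine genes, rose in the double lesion by 1.02 ± 0.23 (adjusted p = 0.016), and the call was lost without Vav Cre 2, double lesion 1 or double lesion 2.

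Of 57 other interferon-induced genes tested, 8 rose in the double lesion and none fell, with a median of 0.21. They were Tgtp1, Tgtp2, Trim12c, Trafd1, Trim34a, Uba7, Samd9l and Parp12. Tgtp1 and Tgtp2 are further immunity-related GTPases, a near-identical pair whose reads may be split between them. Tgtp2 read 80.9, 76.7 and 75.4 CPM for Vav Cre, 96.8, 95.3 and 73.0 for KDM6B OE, 128, 133 and 118 for Tet2 KO and 119, 125 and 130.5 for the double lesion. Its 6 Tet2 flox/flox libraries lay above the 6 others, and it rose by 0.68 ± 0.12 in the double lesion (adjusted p = 0.00551) and by 0.60 ± 0.08 over both transgene states (adjusted p = 0.0139). Tgtp1 rose likewise, by 0.91 ± 0.17 and 0.74 ± 0.12 (adjusted p = 0.00707 and 0.0266). Trim12c, a tripartite motif gene, was 0.68 ± 0.10 higher over both transgene states without Tet2 (adjusted p = 0.0139), and it was the 1 gene of this list that passed in Tet2 KO against Vav Cre. Without double lesion 2 the calls of Tgtp1, Tgtp2 and Trim12c over both transgene states were lost (adjusted p = 0.0769, 0.0743 and 0.0743), and Tgtp1 held in 5 of 12 leave-one-out fits. In Tet2 KO against Vav Cre the call of Trim12c held in 3 of 12. Uba7, which activates ISG15 for conjugation, rose by 0.82 ± 0.25 in the double lesion (adjusted p = 0.0435), while Isg15 itself was -0.21 ± 0.30; the calls of Uba7 and of Parp12 each held in 3 of 12 leave-one-out fits. Trafd1, Trim34a, Samd9l and Parp12 rose by 0.62, 0.60, 0.43 and 0.58. Helz2 was the 1 gene of the list that passed for the transgene over both Tet2 states (0.58 ± 0.15, adjusted p = 0.0456).

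Negative regulators went both ways in the double lesion: of 18 tested, 3 rose and 4 fell. Socs3, an inhibitor of JAK signalling that acts mainly on cytokine receptors of the interleukin-6 family, read 4.41, 5.22 and 6.06 CPM with Vav Cre alone, 16.9, 18.4 and 23.5 under KDM6B OE, 11.2, 8.38 and 9.90 under Tet2 KO and 12.7, 26.3 and 13.3 under both. All 9 libraries with a lesion were above the controls, and it rose by 1.72 ± 0.26 under KDM6B OE and by 1.5 ± 0.26 under both lesions (adjusted p = 0.00828 and 0.00561). Pias4 and Irf2bp2, a SUMO ligase and a partner of IRF2, rose by 0.82 and 0.88 (adjusted p = 0.0156 and 0.0321). The genes that fell were Rnaseh2a, Rnaseh2b and Rnaseh2c, the subunits of RNase H2, whose loss is known to raise interferon signalling in man and mouse, and the phosphatase gene Ptpn11 (-0.31, held in 2 of 12 leave-one-out fits). Rnaseh2b read 116, 139 and 103 CPM for Vav Cre, 76.2, 81.7 and 88.6 for KDM6B OE, 82.6, 84.7 and 89.2 for Tet2 KO and 58.3, 74.6 and 66.2 for the double lesion. The double lesion libraries were below all others, at -0.83 ± 0.13 (adjusted p = 0.00399); Rnaseh2c was -0.79 ± 0.13 and Rnaseh2a -0.50 ± 0.11 (adjusted p = 0.00551 and 0.0151). In this comparison 989 of the 13046 genes were called lower. Of 22 genes of nucleic acid sensing upstream of interferon, Mavs, the adaptor of RIG-I and MDA5, and Ifi205, of the DNA-binding HIN-200 family, rose in the double lesion (0.85 ± 0.18 and 1.68 ± 0.41, adjusted p = 0.0119 and 0.0209) and none fell. These 2 of 22 are near the share of all genes called higher in this comparison, 7.34%. Mavs read 30.4, 23.1 and 34.5 CPM in Vav Cre and 50.2, 56.1 and 53.4 CPM in the double lesion.

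By level per kilobase of annotated exon, the members spanned a wide range, from 0.795 CPM per kilobase for Ifit3b to 104 for Ifi47, as means over the 12 libraries. Bst2 (99.2), Igtp (58.9), Rtp4 (48.3) and Irgm1 (35.3) followed Ifi47, and Gbp2 (34.6) and Gbp7 (30.9) came next. Mx1 (1.21), Mx2 (1.34), Oas3 (2.67) and Oas2 (3.14) were near the lower end. The members summed to 1893 to 2945 CPM per library.

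The members that rose lie at the following places on GRCm38 (GENCODE vM21, whole genes). Irgm1 is on chromosome 11, 48861968 to 48871683, minus strand, and Igtp and Irgm2 overlap, on chromosome 11, 58199556 to 58207591, plus strand and chromosome 11, 58199618 to 58222782, plus strand. Gbp2 (chromosome 3, 142620602 to 142638008, plus strand) and Gbp5 (chromosome 3, 142493978 to 142522344, plus strand) belong to 1 cluster with Gbp3 and Gbp7, and Ifi44 is farther along the same chromosome (chromosome 3, 151730922 to 151749960, minus strand). Ddx58 is on chromosome 4, 40203773 to 40239828, minus strand, Stat2 on chromosome 10, 128270559 to 128292849, plus strand and Oasl2 on chromosome 5, 114896936 to 114912234, plus strand. Iigp1 is on chromosome 18, 60376027 to 60392634, plus strand. Not all neighbours of these genes passed: in the cluster of guanylate-binding genes Gbp2 and Gbp5 rose and Gbp3 read -0.05 ± 0.19, and next to Oasl2 the gene Oasl1 read -0.14 ± 0.36 (adjusted p = 0.891 and 0.818).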

How the data were processed

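Poly(A) RNA of sorted LSK cells (10 to 20 ng) was amplified with a SMARTer v4 kit and made into Nextera libraries, per the labels' protocols; such libraries do not mark strand. The submitters' processing notes name the mouse build mm10, edgeR 3.8.6, HTSeq 0.6.0 and TopHat2 2.0.10; annotation and strand setting were not named there. The table the authors deposited holds a signal, namely CPM on an effective library size: whole reads per gene divided by a scaled library total. All values gave back whole reads (100% within 1e-06), column totals ran from 947374 to 1076728, and no gene had under 10 reads over the 12 libraries. A count of 0 would allow up to 3 reads, at most 0.139 CPM, which covers counting error only.

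The test was limma's (version 3.58.1, R 4.3.3, trended empirical Bayes) on log2(CPM + 1), with 1 mean per group over all 12 libraries, no covariate and 8 residual degrees of freedom, on 13046 genes above 1 CPM in at least 3 libraries; 2320 were set aside. This scale understates changes of low genes. The design had foreseen plain CPM, and its test was kept. There were 8 comparisons. Alternatives were a pseudocount of 0.25, no filter, only the compared groups, equal column totals, a replicate block, a sex term, leaving out each of the 12 libraries, and edgeR 4.0.16 (quasi-likelihood) and DESeq2 1.42.0 on the recovered reads. Same-numbered libraries were compared by the correlation of their deviations from the group means: between Vav Cre and Tet2 KO all 3 pairs were above 0.1 (0.335, 0.340 and 0.300), a sign of pairing from the data and not from the labels; no other 2 groups had 3 such pairs. The scripts were tested on simulated data. The members, roles, pathway and marker lists were chosen with earlier results of these data known. Members are named with every library's value where they were called in any comparison, filled up to 12 by smallest unadjusted p, and where they had the highest mean of their role; other members are given by ranges or examples, and those named beyond this rule were chosen after their values were seen. Pathway genes are named where called, others as examples; 1 gene of these lists is not reported here. Promoters and motif positions come from RefSeq (GRCm38.p6; 28 members matched), and gene models from GENCODE vM21; the share of 50-base words was counted against all annotated transcripts.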

Additional observations from a re-analysis of the deposited data

How the results depend on the processing

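Differences of the members kept their direction in every alternative for the genes named in the text and tested again. The median of the members ran from 0.297 to 0.5089 in the double lesion against Vav Cre, from 0.0093 to 0.2484 against KDM6B OE and from -0.2361 to -0.0318 against Tet2 KO; for the transgene over both Tet2 states it ran from -0.0423 to 0.1388. In the double lesion against Vav Cre the count of 10 members went to 11 with a pseudocount of 0.25, 10 without the filter, 12 with equal column totals, 12 with a sex term, 10 with edgeR (the same 10) and 13 with DESeq2, but to 2 (Iigp1 and Gbp5) when only the compared groups were fitted; leaving out 1 library gave 2 to 14. The counts for the double lesion take in both directions. The 13 with DESeq2 include Ifi47, and the 14 without Vav Cre 3 include Ifi47 and Bst2. Both of these members were below 0 in the main fit. For KDM6B OE against Vav Cre, DESeq2 gave 1 in place of 0 and leaving out 1 library 0 to 3. Tet2 KO against Vav Cre gave 1 with equal column totals, 5 with DESeq2 and 0 to 1 without 1 library. The loss of Tet2 over both transgene states gave 2 with equal column totals, 1 with a sex term, 8 with DESeq2 and 0 to 3 without 1 library. The transgene over both Tet2 states gave 1, 1 and 2 under these settings and 0 to 5 without 1 library. The cause of these shifts was not tested; DESeq2 uses another dispersion model and fitting only the compared groups leaves fewer residual degrees of freedom. Counts over all genes moved more: 22 to 737 beside 78 (KDM6B OE), 0 to 160 beside 4 (Tet2 KO), 289 to 2699 beside 1947 (double lesion), 0 to 70 beside 0 (double lesion against KDM6B OE), 18 to 143 beside 28 (against Tet2 KO), 0 to 5 beside 0 (interaction), 15 to 360 beside 27 (loss of Tet2 over both states) and 391 to 1624 beside 568 (transgene over both states), and without 1 library 22 to 1936, 1 to 305, 300 to 3589, 0 to 5, 9 to 55, 0 throughout, 2 to 284 and 94 to 2777. The lowest value of a member was 0.0439 CPM, for Ifit3b in Vav Cre 3, where 1 read was worth as much.

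Replicate numbers did not pair the libraries over all 4 groups: 10 of 18 same-numbered pairs had a correlation of deviations above 0.1 (from -0.149 to 0.388), and 6 of 12 libraries correlated best with their own number. For Vav Cre with Tet2 KO all 3 pairs were above 0.1. With a replicate block the members called, and the genes called in all, were 12 and 2699 in the double lesion against Vav Cre, 4 and 97 for the loss of Tet2 over both states, and 2 and 1516 for the transgene over both states; 0 members were called in the other 5 comparisons.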
